A study of Mus musculus with 12 samples.

Results

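Interferon-stimulated genes are the genes that cells switch on after an interferon signal. A list of 36 of them was followed in FIRE -/- and FIRE +/+ mice. Each gene was represented by the array feature, called a transcript cluster, that carries its symbol and no other. This gave a value for 33 members, each with exactly 1 cluster, among 18820 genes measured in this way. *Dtx3l* and *Parp9* were present only in 2 clusters named for both genes and *Ifi44* had no cluster of its own, so these 3 members have no value here. *Oas1a* was also named in 1 further cluster, together with *Oas1g*, which was not used.

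FIRE is a conserved enhancer inside *Csf1r*, which encodes the receptor that macrophages and microglia need for their growth. RNA came from the hippocampus and the ileum of mice perfused with saline at 6 weeks of age. The ileum samples are titled Peyer's patches, after a lymphoid organ of the gut wall, and the paper describes patches with the mucosa around them. FIRE -/- mice lacked the enhancer on both *Csf1r* copies, FIRE +/+ mice carried it, and all were labelled as C57BL/6J/CBA. The line descends from a single founder male in which Cas9 had removed the element. There were 3 arrays per group and 12 in all. In the ileum the arrays F09, G09 and H09 were FIRE -/- (labelled as 1 male and 2 females) and C09, D09 and E09 were FIRE +/+ (2 males and 1 female). In the hippocampus the arrays A09, B09 and H07 were FIRE -/- (1 male and 2 females) and E07, F07 and G07 were FIRE +/+ (2 males and 1 female). The sources used here do not say if hippocampus and ileum were taken from the same animals.

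Type I interferons bind a receptor present on nearly all cells and activate the kinases JAK1 and TYK2. These signal through the complex ISGF3, which contains STAT2 and IRF9. The complex binds the interferon-stimulated response element (ISRE) in the promoters of its target genes, whose products block viral entry, translation and replication. In the gut, epithelial cells respond mainly to type III interferon through the same complex, and microglia are among the interferon-responsive cells of the brain.

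Values are log2 signals after robust multi-array averaging (RMA), a method that corrects background, equalises the arrays and summarises the probes of each cluster. A difference of 1 is therefore a 2-fold difference in signal. Levels of different genes were not compared with each other, since each cluster has its own probes. The median of all values was 4.39, and clusters whose mean lay below it in both genotypes are called dim here. Of the 33 members, 29 passed this limit in the ileum and 13 in the hippocampus. The deleted element was checked through *Csf1r* itself. *Csf1r* was at 3.58, 3.69 and 3.65 in FIRE -/- hippocampi, against 8.34, 8.31 and 8.15 in FIRE +/+ hippocampi. In the ileum it was at 6.44 on F09, 7.53 on G09 and 6.86 on H09, against 7.41 on C09, 8.17 on D09 and 7.39 on E09, so that G09 lay inside the FIRE +/+ range. The arrays F09 and D09 held far more lymphoid tissue than the other ileum arrays, with the B cell gene *Ms4a1* (CD20) at 7.68 and 7.66, against 2.14 to 2.68 on the other 4. On these 4 it thus lay near the hippocampus arrays (1.85 to 2.26), although their titles name Peyer's patches too. The B cell gene *Cd79a* was at 3.37 to 5.59 on these 4, above the hippocampus arrays (2.48 to 2.93). For 1 of the 12 arrays, B09, the sex-linked transcripts went against the labelled sex. With 3 arrays against 3, an exact permutation test of a single gene cannot give a two-sided p under 0.1.

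The binding element is printed here because ISGF3 acts on its target genes through it. Promoter windows, from 250 bases before to 50 bases after the transcription start, were taken from RefSeq (GRCm38.p6) for 27 of the 36 members. *Oas2*, *Zbp1*, *Parp14*, *Parp9*, *Rtp4*, *Mx2*, *Usp18*, *Dhx58* and *Mx1* had no window. The core letters GAAANNGAAA, on either strand, were present in 12 of the 27 members (44.4%) and in 1079 of 27025 genes in all (3.99%). The letters TTCNNNGAA of the gamma-activated sequence, which reads the same on both strands, were present in 6 of the 27 (22.2%) and in 9.55% of all genes. Windows that hold the core are shown for the members given by array in this report, and for *Ifit3*, which holds a pair of cores as *Ifit1* does. They run 5′ to 3′ along the gene, and capitals mark the core and its overlapping repeats.
Ifit1 (chr19:34640775-34640804, + strand, core 104 bases before the start): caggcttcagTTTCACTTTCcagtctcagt
Ifit1, second core (chr19:34640794-34640823, + strand, 85 bases before): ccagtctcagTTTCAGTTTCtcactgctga
Ifit3 (chr19:34583363-34583392, + strand, 156 bases before): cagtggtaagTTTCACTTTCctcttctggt
Ifit3, second core (chr19:34583397-34583426, + strand, 122 bases before): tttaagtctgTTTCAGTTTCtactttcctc
Isg15 (chr4:156200871-156200900, - strand, 78 bases before): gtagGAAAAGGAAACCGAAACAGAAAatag
Oas1a (chr5:120907523-120907552, - strand, 20 bases before): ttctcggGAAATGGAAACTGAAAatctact
Oas3 (chr5:120777715-120777744, - strand, 75 bases before): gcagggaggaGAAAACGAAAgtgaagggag
Cxcl10 (chr5:92349083-92349112, - strand, 213 bases before): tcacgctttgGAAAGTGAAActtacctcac
Bst2 (chr8:71537580-71537609, - strand, 130 bases before): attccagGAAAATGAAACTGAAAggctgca
In *Isg15*, *Oas1a* and *Bst2* the GAAA block is repeated so that cores overlap, whereas *Oas3* and *Cxcl10* hold a single core and *Ifit1* and *Ifit3* a pair each. The other members with the core were *Eif2ak2*, *Gbp3*, *Ifih1*, *Rsad2* and *Stat2*. A match describes these letters and does not show that a factor binds there.

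In the ileum, the members tended to lie higher in FIRE -/- mice, but no single member passed the test. The mean difference was above 0 for 31 of 33 members, against 47.1% of all clusters tested, with only *Samd9l* (-0.01) and *Mx1* (-0.01) below 0. The median difference of the members was 0.30 (range -0.01 to 0.97), beside -0.01 for all 21218 clusters. Genotypes were compared with limma, which shares an estimate of the spread across clusters, and p-values were adjusted by the Benjamini-Hochberg method with a threshold of 0.05. None of the 33 members passed it in either direction, and neither did any other cluster (0.00% higher and 0.00% lower, adjusted p of 0.999 for every member). At an unadjusted p under 0.05, 10 members were higher in FIRE -/- (1.85% of all clusters were) and 0 were lower (1.54%). The FIRE -/- arrays all lay above the FIRE +/+ arrays for 5 members, *Usp18*, *Ifit1*, *Ifit3*, *Trim25* and *Zbp1*, beside 3.52% of all clusters, and for 0 members did they all lie below (4.52%). The members were chosen with earlier results of these data known, and all rest on the same arrays. Counts over them therefore describe the list and do not test it. Because whole tissue was measured, more interferon-responsive cells and more RNA per cell cannot be told apart.

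**Figure D1:**
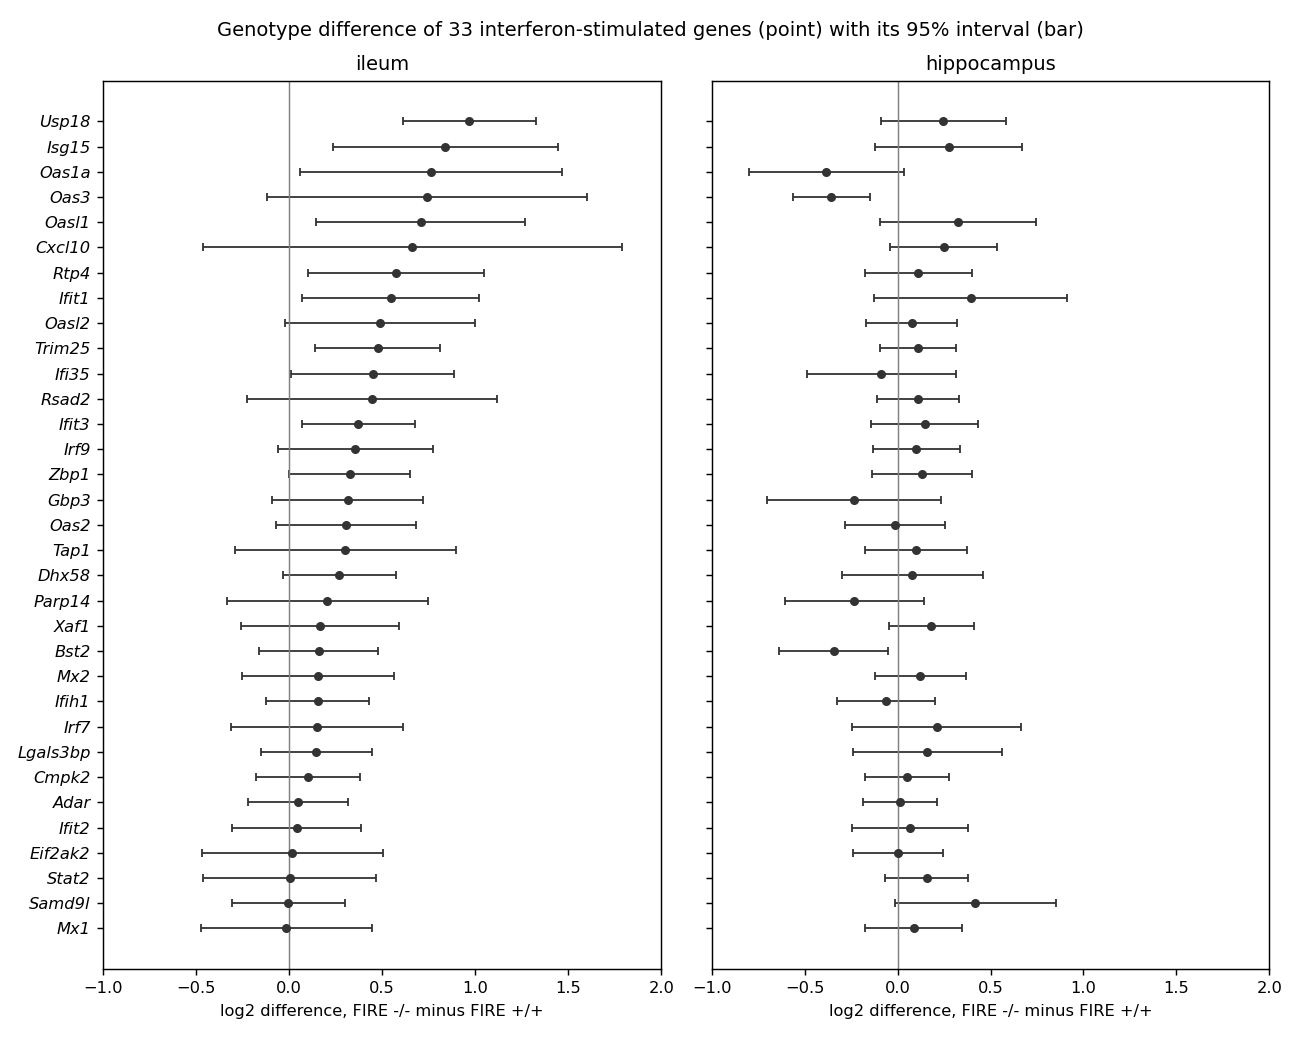
Log2 difference (FIRE -/- minus FIRE +/+, x axis) of each of the 33 measured members in ileum (left) and hippocampus (right), with 95% confidence intervals from limma. Members run from the largest ileum difference (*Usp18*, 0.97) at the top to the lowest (*Mx1*, -0.01), and 31 points lie above 0 in the ileum and 25 in the hippocampus.

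*Usp18* showed the largest difference in the ileum. It encodes the protease that removes ISG15 from proteins and also holds back signalling at the interferon receptor. Its level was 6.65, 6.30 and 6.20 on the FIRE -/- arrays F09, G09 and H09, against 5.52, 5.26 and 5.48 on the FIRE +/+ arrays C09, D09 and E09. All FIRE -/- arrays thus lay above all FIRE +/+ arrays, with a gap wider than the range inside either group. The log2 difference was 0.97 (SE 0.15, 95% confidence interval 0.61 to 1.33), a 1.96-fold higher signal. Its unadjusted p of 0.000359 was the third smallest of all 21218 clusters, and its adjusted p was 0.999. With 1 array left out, the difference stayed between 0.84 and 1.06.

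The other members of receptor signalling and regulation moved less. *Irf9*, the DNA-binding part of ISGF3, averaged 7.45 ± 0.31 in FIRE -/- ileum and 7.10 ± 0.14 in FIRE +/+ ileum (SD, n = 3 each), a difference of 0.36 (SE 0.18). *Irf7*, the factor that amplifies interferon production, averaged 9.22 ± 0.28 and 9.07 ± 0.28 in the same order, and *Stat2* averaged 7.32 ± 0.39 and 7.32 ± 0.07. The intervals of these 3 genes all included 0.

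Oligoadenylate synthetases make the messenger that activates RNase L, which degrades viral and cellular RNA. Their 5 measured members, which include the related Oasl genes, had the highest median of the role groups in the ileum, 0.71, and all 5 lay above 0 (0.30 to 0.76). *Oas1a* was at 6.65, 5.72 and 6.35 on F09, G09 and H09 of FIRE -/- mice, against 5.82, 4.97 and 5.64 on C09, D09 and E09 of FIRE +/+ mice, a difference of 0.76 (SE 0.30). Only G09 fell inside the FIRE +/+ range. *Oas3* was at 7.23, 5.97 and 6.44 on the FIRE -/- arrays, against 6.36, 5.39 and 5.66 on the FIRE +/+ arrays, a difference of 0.74 (SE 0.36). *Oasl1*, which restrains translation of the *Irf7* message in mice, was at 8.75, 7.96 and 8.33 on the FIRE -/- arrays, against 7.60, 7.35 and 7.98 on the FIRE +/+ arrays, a difference of 0.71 (SE 0.24). In *Oas3* and *Oasl1* the array G09 again lay below the highest FIRE +/+ array, and F09 was the highest of the 6 arrays in all 3 genes. *Oas3* and *Oas1a* rested most on the lymphoid-rich arrays, with differences of 0.19 and 0.30 without both F09 and D09. *Oas3* was at 0.40 without F09 alone, and *Oasl1* was at 0.36 without both arrays. *Oasl2* differed by 0.49 (SE 0.22) and *Oas2* by 0.30 (SE 0.16).

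**Figure D2:**
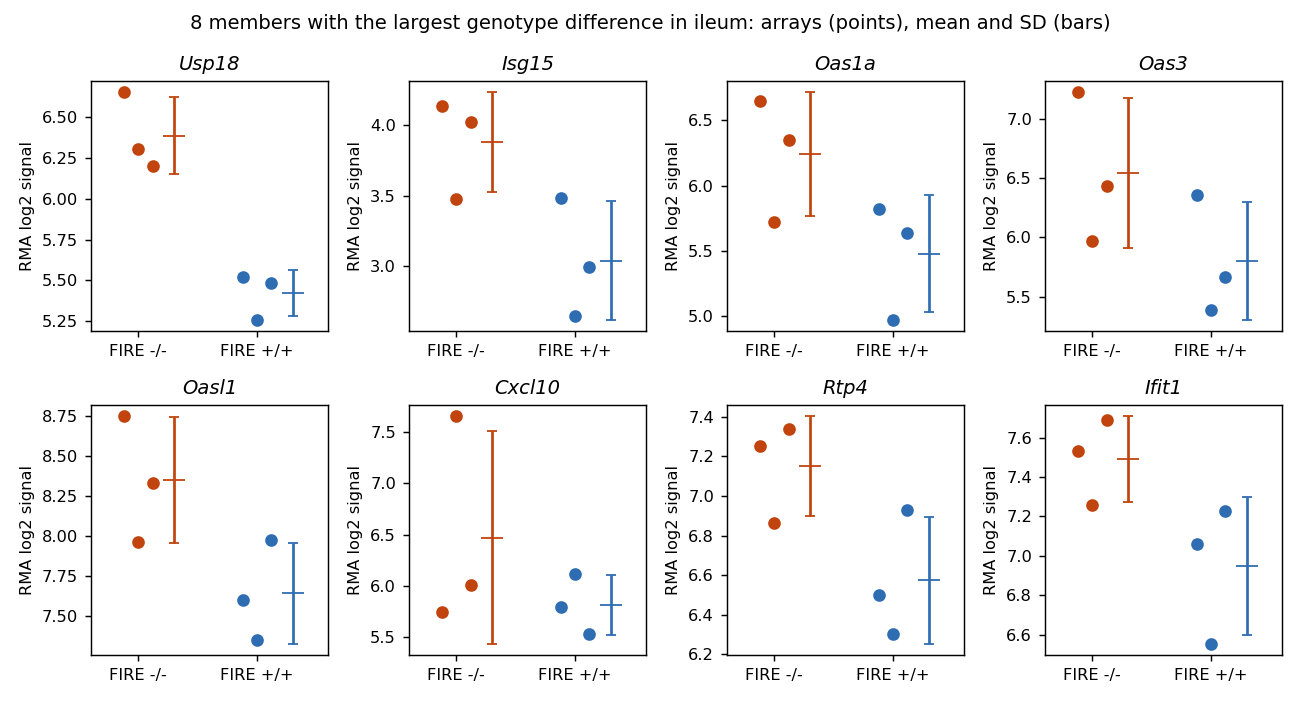
RMA log2 signal (y axis) of the 8 members with the largest genotype difference in the ileum, 3 FIRE -/- arrays on the left and 3 FIRE +/+ arrays on the right of each panel. Points are arrays and bars the mean and SD, and only *Usp18* and *Ifit1* among these 8 show no overlap between genotypes.

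IFIT proteins bind foreign RNA and block its translation. *Ifit1* was at 7.53, 7.26 and 7.69 on the FIRE -/- arrays F09, G09 and H09, against 7.06, 6.55 and 7.23 on the FIRE +/+ arrays, a difference of 0.54 (SE 0.20). The genotypes did not overlap, although G09 and E09 were only a few hundredths apart. The difference was 0.33 without both F09 and D09, and 0.35 without D09 alone. *Ifit3* averaged 6.74 ± 0.07 in FIRE -/- ileum and 6.37 ± 0.19 in FIRE +/+ ileum, without overlap. *Ifit2*, of the same family, differed by 0.04 (SE 0.15).

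Among the modifiers related to ubiquitin, *Trim25*, a ligase that activates the RNA sensor RIG-I, averaged 9.03 ± 0.23 in FIRE -/- ileum and 8.56 ± 0.10 in FIRE +/+ ileum without overlap, a difference of 0.47 (SE 0.14). *Isg15*, the ubiquitin-like modifier itself, was at 4.14, 3.47 and 4.02 on F09, G09 and H09, against 3.48, 2.64 and 2.99 on C09, D09 and E09, a difference of 0.84 (SE 0.26). Both groups were dim and G09 lay just below the highest FIRE +/+ value. The difference was 0.51 without both F09 and D09. The identity of this cluster is less certain than that of the others, because 9 of the 10 named clusters nearest to it by number belong to chromosome 17, whereas RefSeq places *Isg15* on chromosome 4. For the other 32 members, 8 to 10 of the 10 nearest lay on the member's own chromosome. *Parp14*, an ADP-ribosyltransferase, differed by 0.21 (SE 0.23).

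Of the 8 Mx GTPases and other direct effectors, 6 lay above 0, with a median of 0.16. *Rtp4*, a chaperone of membrane receptors, was at 7.25, 6.86 and 7.34 on the FIRE -/- arrays, against 6.50, 6.30 and 6.93 on the FIRE +/+ arrays, a difference of 0.58 (SE 0.20) with E09 just above G09. *Rsad2* (viperin), which makes a chain-terminating nucleotide, differed by 0.45 (SE 0.28), and *Gbp3*, a guanylate-binding protein, by 0.31 (SE 0.17). *Bst2* (tetherin), which holds budding virus at the cell surface, differed by 0.16 (SE 0.14), and *Cmpk2*, a mitochondrial nucleotide kinase, by 0.10 (SE 0.12). The GTPase genes *Mx1* and *Mx2* were dim and differed by -0.01 and 0.15, and *Samd9l* by -0.01 (SE 0.13). Laboratory strains such as C57BL/6 are known to carry a defective *Mx1*.

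The 5 genes of RNA and DNA sensing all lay above 0, with a median difference of 0.15. *Zbp1*, a sensor of Z-form nucleic acid, averaged 6.28 ± 0.10 in FIRE -/- ileum and 5.96 ± 0.21 in FIRE +/+ ileum, without overlap, and differed by 0.32 (SE 0.14). *Dhx58* (LGP2) differed by 0.27 (SE 0.13), *Ifih1* (MDA5) by 0.15 (SE 0.12), the RNA-editing enzyme gene *Adar* by 0.05 (SE 0.11) and *Eif2ak2* (PKR), which stops translation, by 0.02 (SE 0.21). Of the remaining members, *Ifi35* differed by 0.45 (SE 0.19), *Xaf1* by 0.16 and *Lgals3bp* by 0.15. *Tap1*, the peptide transporter of class I presentation, differed by 0.30 (SE 0.25).

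*Cxcl10*, the chemokine that draws activated T cells, had a difference set by a single array. It was at 5.75, 7.66 and 6.01 on the FIRE -/- arrays F09, G09 and H09, against 5.79, 6.11 and 5.53 on the FIRE +/+ arrays C09, D09 and E09. G09 was the highest by more than a log2 unit, while F09 and H09 lay inside the FIRE +/+ range. The difference was 0.66 (SE 0.48), and it was 0.07 without G09. Without F09 it was 1.02. G09 was the lowest FIRE -/- array for every other member given by array above except *Usp18*, so *Cxcl10* did not follow their order. *Gbp3* was the only other member with its highest value on G09, at 5.45, beside 15.34% of all clusters. G09 was also the only FIRE -/- ileum array labelled as male.

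By array, the mean of the 33 members was 6.85 on F09, 6.61 on G09 and 6.77 on H09 in FIRE -/- ileum, against 6.52 on C09, 6.28 on D09 and 6.41 on E09 in FIRE +/+ ileum. These means did not overlap. F09 was the highest of the 6 arrays for 16 members (15.72% of all clusters) and H09 for 10 (15.16%), and D09 was the lowest for 17 (18.39%). F09 was the lowest array for 0 members, although it was the lowest for 22.97% of all clusters.

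Lymphoid content differed between arrays of the same genotype, and its part in the differences of the members was not tested. F09 and D09 had nearly the same *Ms4a1* signal but the highest and the lowest mean of the members. Both arrays lay above the other 4 for 1 member, *Adar*, beside 6.68% of all clusters, and both lay below for 1 member, *Ifit2*, beside 6.97%. With *Ms4a1* as a covariate the median difference was 0.31, no member passed the threshold, and 31 members lay above 0 (47.1% of all clusters). *Ms4a1* was high on 1 array of each genotype, so this fit could hardly change the genotype difference, whatever the part of lymphoid content. Without both F09 and D09, which leaves 2 arrays of each genotype, the median was 0.20 and 28 members lay above 0 (49.6% of all clusters). In that fit 3 members instead of 10 were higher at an unadjusted p under 0.05, beside 2.79% of all clusters. *Usp18* was then at 0.75 (SE 0.13, limma adjusted p = 0.913). No correlation with *Ms4a1* is given, since its values fall into 2 clusters of arrays.

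**Figure D3:**
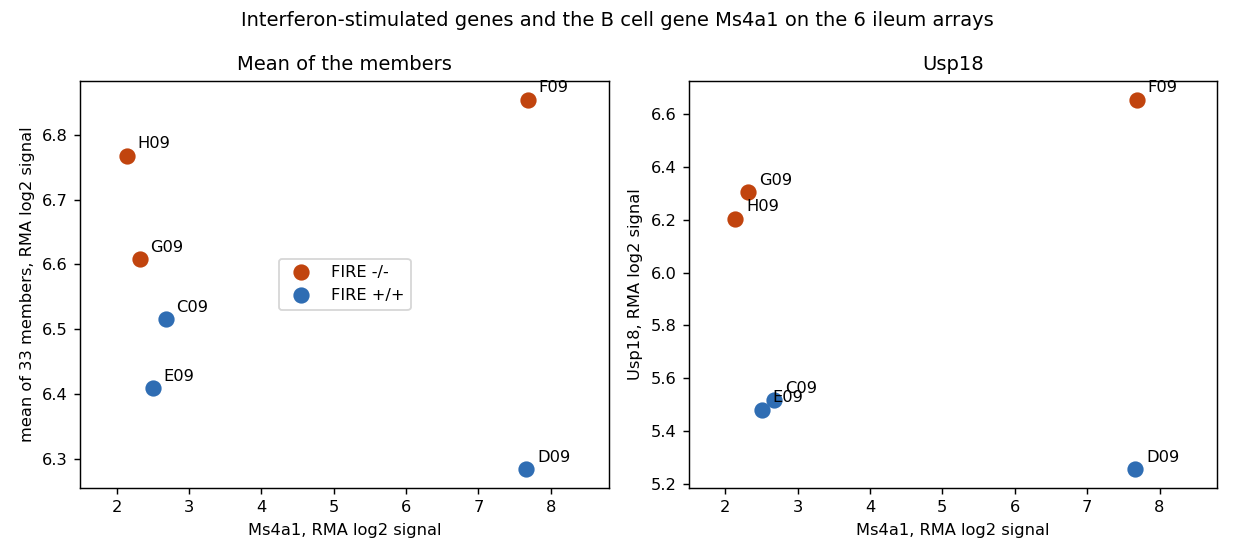
Mean of the 33 members (left) and *Usp18* (right) against *Ms4a1*, all as RMA log2 signal, on the 6 ileum arrays. At the high *Ms4a1* end, F09 (FIRE -/-) has the highest mean, 6.85, and D09 (FIRE +/+) the lowest, 6.28, and the other 4 arrays keep the same order of genotypes.

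Markers of other cell types in the ileum pieces were taken as mean levels of each list per array. Enterocyte markers (13 genes) ranged from 10.79 to 11.28 in FIRE -/- and from 10.40 to 11.04 in FIRE +/+ ileum. Of these 13, 11 lay above 0 (47.1% of all clusters) and 2 were higher in FIRE -/- at an unadjusted p under 0.05 (1.85%). *Lct*, the lactase gene, differed by 2.25 (SE 1.06) and *Fabp1*, a fatty acid carrier, by 1.84 (SE 0.78), while *Apoa4*, an apolipoprotein, differed by 1.26 (SE 0.38) and *Slc10a2*, the ileal bile acid transporter, by -1.56 (SE 0.82). All 4 differed in size by more than any member did, with overlap between genotypes. *Slc10a2* was at 5.58 on G09, against 8.18 on F09, 8.76 on H09 and 8.24 to 9.79 on the FIRE +/+ arrays. B cell markers (10 of 11 measured) ranged from 3.51 to 7.53 in FIRE -/- and from 3.39 to 7.43 in FIRE +/+ ileum, with *Bank1* at 0.52 (SE 1.13) and *Cd79a* at 0.45 (SE 1.86). T cell markers (9 of 11 measured) ranged from 4.61 to 5.97 in FIRE -/- and from 4.497 to 5.95 in FIRE +/+ ileum, with *Cd8b1* at 0.40 (SE 0.69) and *Cd5* at 0.37 (SE 0.52). Macrophage markers (19 of 20 measured) ranged from 6.19 to 6.82 in FIRE -/- and from 6.10 to 7.04 in FIRE +/+ ileum. *Fcrls* was lower in FIRE -/- without overlap, with a difference of -0.76 (SE 0.23), and *Csf1r* differed by -0.71 (SE 0.32). Plasmacytoid dendritic cells are strong producers of type I interferon. Their markers (9 of 10 measured, among them the member *Bst2*) ranged from 5.14 to 5.59 in FIRE -/- and from 4.98 to 6.05 in FIRE +/+ ileum, with the highest value on D09. The largest differences among them were *Ly6d* at -0.38 (SE 0.86) and *Siglech* at 0.33 (SE 0.20). None of the markers passed the threshold, each with an adjusted p of 0.999, and the ranges of the mean levels overlapped in every list. Their part in the result was not tested.

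No gene around the members in the pathway passed the threshold in the ileum. Of 13 measured interferon ligands (18 listed), 0 passed the threshold and the median difference was 0.07, the largest being *Ifna9* at 0.34 (SE 0.15) and *Ifnab* at -0.16 (SE 0.16). Of 21 receptor and signalling genes, 0 passed and the median was 0.02. *Socs3*, a feedback inhibitor of JAK kinases, differed by 0.68 (SE 0.27, adjusted p = 0.999), and *Socs1* by 0.25. Of 15 sensor genes outside the members, 0 passed, with *Aim2* at -0.43 (SE 0.17) and *Tlr9* at 0.37 (SE 0.79). Among 50 measured further interferon-stimulated genes (65 listed), 0 passed, 35 lay above 0 (47.1% of all clusters) and the median was 0.10. *Ube2l6*, the enzyme that hands ISG15 to its ligase, was the largest of these at 0.57 (SE 0.15), and *Herc6*, a ligase for ISG15 in mice, was at 0.51 (SE 0.21), both without overlap between genotypes. The 15 class I presentation genes had a median of 0.08, led by *Psmb8* at 0.33 (SE 0.20) and *Psmb9* at 0.21 (SE 0.20).

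In the hippocampus, the members showed smaller differences, and none passed the threshold. The mean difference was above 0 for 25 of 33 members (52.5% of all clusters), the median was 0.10 beside 0.01 for all clusters, and the range was -0.38 to 0.42. Clusters past the threshold were all lower in FIRE -/- hippocampi (0.448% of those tested), with 0.00% higher, and 0 of the 33 members were among them. At an unadjusted p under 0.05, 0 members were higher (1.79% of all clusters) and 2 were lower (2.95%), namely *Oas3* and *Bst2*. These 2 were also the only members without overlap between genotypes, both lower in FIRE -/- (5.20% of all clusters), with 0 members wholly higher (4.46%).

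*Oas3* was at 2.91, 2.83 and 2.999 on the FIRE -/- arrays A09, B09 and H07, against 3.26, 3.20 and 3.35 on the FIRE +/+ arrays E07, F07 and G07. The difference was -0.36 (SE 0.09, adjusted p = 0.432) at a dim level. *Bst2* was at 4.64, 4.81 and 4.72 on the FIRE -/- arrays, against 5.30, 4.85 and 5.05 on the FIRE +/+ arrays, a difference of -0.34 (SE 0.13, adjusted p = 0.935), where B09 and F07 nearly met. Without E07 it was -0.23. *Oas1a* was at 3.34, 2.98 and 3.37 on the FIRE -/- arrays, against 3.33, 3.54 and 3.97 on the FIRE +/+ arrays, a difference of -0.38 (SE 0.18). Like *Oas3*, this gene was dim, and E07 lay among the FIRE -/- values while G07 was the highest. Without G07 it was -0.20.

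The largest positive differences in the hippocampus came from dim clusters. *Samd9l* was at 3.25, 2.999 and 3.66 on A09, B09 and H07, against 2.996, 3.04 and 2.61 on E07, F07 and G07, a difference of 0.42 (SE 0.19). *Ifit1* was at 3.79, 4.40 and 3.78 on the FIRE -/- arrays, against 3.79, 3.17 and 3.82 on the FIRE +/+ arrays, a difference of 0.39 (SE 0.22). In both genes a single array of each genotype made most of the difference, H07 and G07 for *Samd9l* and B09 and F07 for *Ifit1*. Without H07, *Samd9l* was at 0.24, and without B09 or F07, *Ifit1* was at 0.19 or 0.18. *Oasl1* was at 4.05, 4.52 and 4.23 on the FIRE -/- arrays, against 3.58, 4.03 and 4.21 on the FIRE +/+ arrays, a difference of 0.33 (SE 0.18). *Isg15* was at 3.24, 2.92 and 3.64 on the FIRE -/- arrays, against 2.92, 3.09 and 2.97 on the FIRE +/+ arrays, a difference of 0.27 (SE 0.17). *Cxcl10* was at 3.97, 4.34 and 4.02 on the FIRE -/- arrays, against 4.01, 3.76 and 3.82 on the FIRE +/+ arrays, a difference of 0.25 (SE 0.13). All 3 overlapped between genotypes. With 1 array left out, *Oasl1* was at 0.15 without E07 and 0.20 without B09, *Isg15* at 0.09 without H07 and 0.45 without B09, and *Cxcl10* at 0.13 without B09. *Usp18*, the leading gene of the ileum, differed by 0.25 (SE 0.15) in the hippocampus.

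**Figure D4:**
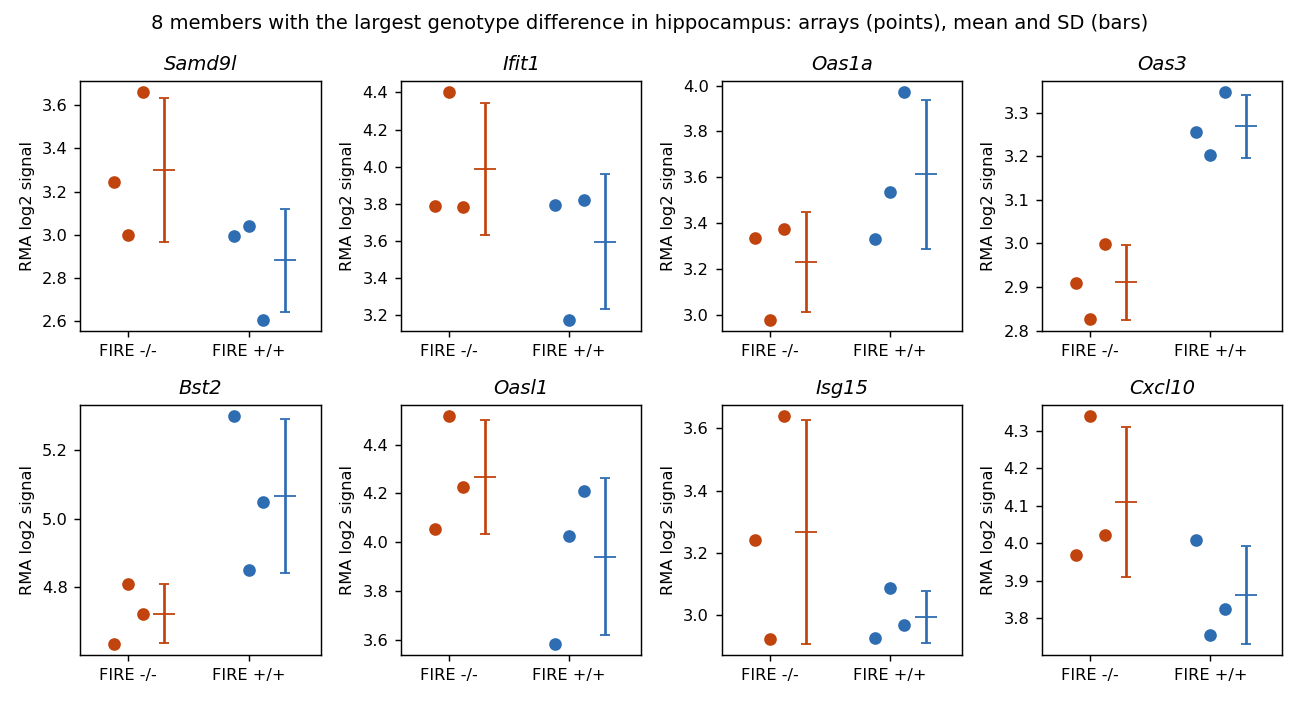
RMA log2 signal (y axis) of the 8 members with the largest genotype difference in the hippocampus, 3 FIRE -/- arrays on the left and 3 FIRE +/+ arrays on the right of each panel. Points are arrays and bars the mean and SD, and only *Oas3* and *Bst2* separate the genotypes, both with FIRE -/- below.

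The mean of the 33 members was 4.54, 4.56 and 4.56 on the FIRE -/- hippocampus arrays, against 4.54, 4.42 and 4.49 on the FIRE +/+ arrays. The array codes end in 07 or 09, and all FIRE +/+ hippocampi but only 1 of the FIRE -/- hippocampi, H07, have codes ending in 07. What this number stands for is not stated. With the code number as a block, the median of the members was 0.05 and 20 lay above 0, and no member passed. In the fit without the block, 52.5% of all clusters lay above 0. The arrays with 07 alone, 1 against 3, gave the same median of the members, and there the lone FIRE -/- array is assumed to vary like the others. *Samd9l* and *Isg15* were then at 0.78 and 0.65, and *Ifit1*, *Cxcl10* and *Oas1a* at 0.18, 0.16 and -0.24. Without B09, the array whose sex-linked transcripts went against its label, the median was 0.09 and 0 members passed.

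Some genes of the wider pathway did change in the hippocampus. Of 21 measured receptor and signalling genes, 2 fell, *Irf8* with a difference of -1.66 (SE 0.11, adjusted p = 0.000325) and *Irf5* with -0.79 (SE 0.12, adjusted p = 0.0485). Both encode transcription factors prominent in myeloid cells. Of 15 sensor genes outside the members, 3 fell, *Sting1* (-1.37, SE 0.13, adjusted p = 0.00296), *Tlr7* (-1.29, SE 0.14, adjusted p = 0.00526) and *Tlr9* (-1.01, SE 0.08, adjusted p = 0.00135). Microglia and macrophage markers were lower as well, with 18 of 19 measured genes past the threshold, a median difference of -2.90, and mean levels of 3.89 to 4.14 in FIRE -/- and 6.70 to 6.98 in FIRE +/+ hippocampi. The differences were largest for *Csf1r* (-4.63, SE 0.09), *Ctss* (-4.02, SE 0.17), *Ly86* (-3.79, SE 0.16) and *P2ry13* (-3.69, SE 0.11). The part of these markers in the pathway result was not tested. Of 9 measured plasmacytoid markers, 1 fell, *Siglech* (-2.56, SE 0.10), a gene that microglia also express. Of the 50 further interferon-stimulated genes, 0 passed and the median was 0.01, with *Uba7* at -0.50 (SE 0.12) and *Ifitm3* at 0.41 (SE 0.26). Among 15 class I genes, 0 passed, and *H2-K1* had the largest difference at 0.67 (SE 0.13, adjusted p = 0.179) without overlap, followed by *Psmb8* at -0.36 (SE 0.21). Of 13 ligands, 0 passed, led by *Ifna11* at 0.33 and *Ifnab* at 0.30. The markers of astrocytes, brain endothelium and neurons had medians of 0.02, 0.00 and 0.01, with 0 genes past the threshold. *Gfap*, the filament gene that reactive astrocytes raise, was nevertheless higher in FIRE -/- hippocampi without overlap, by 0.56 (SE 0.10, adjusted p = 0.142), which is more than any member differed there. *Slc1a3*, the next astrocyte gene, was at 0.13 (SE 0.12). The largest differences among endothelial markers were *Cldn5* at -0.18 and *Slc2a1* at 0.10, and among neuron markers *Gad1* at 0.09 and *Map2* at -0.05. B and T cell markers had medians of -0.12 and -0.05, led by *Cd79b* at -0.82 (SE 0.19) and *Bank1* at -0.43 (SE 0.15), and by *Cd2* at -0.52 (SE 0.14) and *Cd3g* at -0.29 (SE 0.14), with 0 past the threshold.

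Whether the genotype difference of a member differed between the tissues was tested as the hippocampus difference minus the ileum difference in a fit of all 12 arrays. No member passed, whereas 0.0895% of all clusters did with a lower value in the hippocampus and 0.00% with a higher one. The median over the members was -0.22. The uneven code numbers of the hippocampus genotypes enter this test too. At an unadjusted p under 0.05 there were 5 members, all lower in the hippocampus (2.46% of all clusters), namely *Usp18* (-0.72, SE 0.22), *Oas1a* (-1.14, SE 0.38), *Oas3* (-1.10, SE 0.41), *Bst2* (-0.50, SE 0.19) and *Trim25* (-0.36, SE 0.17). *Oas1a* and *Oas3* had the widest gaps, with FIRE -/- means below FIRE +/+ in the hippocampus and above it in the ileum. Both genes were dim in the hippocampus, with means of 3.23 and 2.91 in FIRE -/- and of 3.61 and 3.27 in FIRE +/+ mice. *Samd9l* ran the other way at 0.42 (SE 0.24). Each adjusted p was 1.0.

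Tissue made a far larger difference than genotype. In FIRE -/- mice, 30 of 33 members were higher in ileum than in hippocampus (31.8% of all clusters) and 1 was lower (29.5%). In FIRE +/+ mice, 29 were higher (31.1%) and 1 was lower (28.7%). The median ileum minus hippocampus difference was 2.27 in FIRE -/- and 1.87 in FIRE +/+ mice. *Irf7* had the largest, 4.91 (SE 0.21, adjusted p = 7.91e-10) in FIRE -/- and 4.97 (SE 0.21, adjusted p = 7.29e-10) in FIRE +/+ mice. It averaged 9.22 in ileum and 4.31 in hippocampus of FIRE -/- mice, and 9.07 in ileum and 4.10 in hippocampus of FIRE +/+ mice. Next came *Parp14*, *Oasl1*, *Ifi35* and *Trim25* in FIRE -/- mice, with differences from 3.98 to 4.29. *Adar* was the single member lower in ileum, with a difference of -1.20 (SE 0.10) in FIRE -/- and -1.23 (SE 0.10) in FIRE +/+ mice. *Ifit2* and *Mx2* did not pass in either genotype, with differences of -0.13 and -0.10 in FIRE -/- and of -0.10 and -0.13 in FIRE +/+ mice (SE 0.15 each). *Isg15* passed in FIRE -/- mice (0.61, adjusted p = 0.0418) and not in FIRE +/+ mice (0.04, adjusted p = 0.891), and its test between the differences did not pass. Many members were dim in the hippocampus, where a low signal need not mean a measured level. In FIRE +/+ mice all ileum codes end in 09 and all hippocampus codes in 07, so tissue and code number cannot be told apart there. In FIRE -/- mice only the hippocampus array H07 has a code ending in 07.

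**Figure D5:**
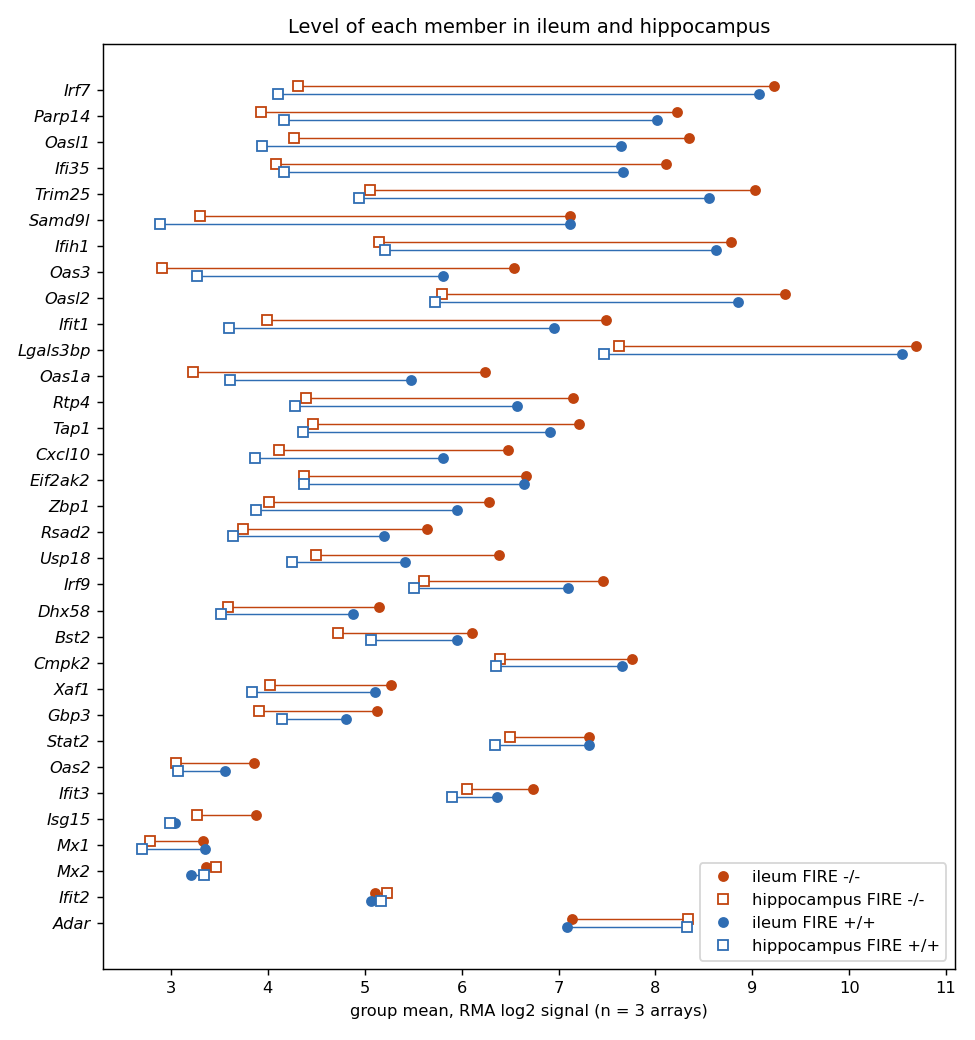
Group mean (RMA log2 signal, x axis, 3 arrays each) of each member in ileum (filled circles) and hippocampus (open squares), FIRE -/- above FIRE +/+ within each row. Members are ordered by the ileum minus hippocampus difference in FIRE -/- mice, from *Irf7* (4.91) at the top to *Adar* (-1.20), the only member with both circles left of its squares beyond the threshold.

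The members that carry the ISRE letters were set beside those that do not. In the ileum the 12 members with the core had a median difference of 0.41 and all 12 lay above 0 (0.00 to 0.84), the 13 measured members with a window but no core had a median of 0.16 with 12 above 0, and the 8 without a window had 0.29 with 7 above 0. In the hippocampus the medians were 0.05, 0.10 and 0.10 in the same order. The core is thus present in members with large ileum differences such as *Oas1a*, *Oas3* and *Isg15*, the last with a cluster of less certain identity. It is also present in *Stat2*, whose difference was 0.00 (SE 0.20). *Oasl1*, with 0.71, had no core in its window. These are descriptions of few genes, without a test.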

How the data were processed

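RNA from hippocampus and ileum was hybridised to 12 Affymetrix Mouse Gene 1.0 ST arrays. The deposited log2 values were made by the authors by RMA (its version: not given in the sources used here). They were used without further scaling, and 0 columns of values were left unused. Clusters with a single symbol (21218) were tested, and clusters with several symbols (1881) or unnamed (12457) were left out. Symbols came from the platform annotation.

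Each tissue was fitted separately by lmFit and eBayes of limma 3.58.1, under R 4.3.3, as FIRE -/- minus FIRE +/+, without covariates and without a filter on signal. Tissues were compared in a fit of all 12 arrays. The fits were also run on simulated arrays with independent noise for each cluster. These held no differences in lymphoid content, sex or code number, so they do not show how such differences affect the fits. Members and gene lists were chosen with earlier results of these data known. All members are named, and those among the 8 largest differences per tissue are given by array. From each further list described for a tissue, up to 4 genes past the threshold are named by size, otherwise the 2 with the largest difference. *Apoa4* and *Slc10a2* were named after their values were seen. The labels do not say whether arrays stand for separate mice, so p-values measure the spread between these samples. Close paralogs (Oas, Ifit, Gbp, class I and Ifna genes) may share probes. The number of arrays limits the precision. Alternatives were another shrinkage, the study's one-way test without moderation, quantile normalization, all clusters, a dim filter, sex, array weights, a joint fit, the code number, Ms4a1 and leaving out arrays. The test without moderation stands in for the one-way analysis of variance of the study's console software.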

Additional observations from a re-analysis of the deposited data

How the results depend on the processing

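No member passed the threshold in either genotype comparison, or in the test of whether the genotype difference differed between tissues, under any alternative run for it, each array left out included. The median difference in the ileum ranged from 0.22 to 0.32 with 1 array left out and was 0.20 without both arrays high in *Ms4a1*. In the hippocampus it ranged from 0.08 to 0.13, and blocking on the code number or keeping only the 07 arrays gave 0.0453 each. Members above 0 numbered 28 to 32 in the ileum and 22 to 25 in the hippocampus with 1 array left out, and 11 of the 13 members that pass the filter on dim clusters in the hippocampus. With all arrays and no filter, 47.1% of all clusters lay above 0 in the ileum and 52.5% in the hippocampus.

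Counts at an unadjusted p under 0.05 were less stable. The 10 members higher in FIRE -/- ileum (1.85% of all clusters) became 3 in the test of each cluster without moderation (1.6%), 3 without both arrays high in *Ms4a1* (2.79%), and 5 to 12 with 1 array left out (1.10% to 2.85%), with 5 without F09, D09 or H09 and 6 without E09. Members higher in FIRE -/- hippocampus, 0 in the report, were 1 with trend and robust shrinkage, quantile normalization, sex as covariate or all 12 arrays in 1 fit (1.14% to 2.69% of all clusters), 2 with the arrays of code 07 alone (1.40%), 3 with the code number as a block (1.77%), and 0 to 2 with 1 array left out (1.48% to 3.01%). Members lower there, 2 in the report, were 1 without moderation, with the dim filter or with all 12 arrays in 1 fit (1.87% to 2.80%), 0 with the code number as a block or the 07 arrays alone (2.04% and 1.81%), and 1 to 3 with 1 array left out (2.42% to 4.18%). The cause of these changes was not tested. Quantile normalization raised the members without overlap in the ileum to 8 (3.53%).

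Members that differed between tissues numbered 29 to 31 in FIRE -/- and 29 to 30 in FIRE +/+ mice with 1 array left out. Most clusters differed between tissues too. With all arrays, 31.8% of all clusters were higher and 29.5% lower in FIRE -/- ileum than hippocampus, and 31.1% and 28.7% in FIRE +/+ mice. No paired analysis was possible because the labels give no replicate numbers. Each measured member has 1 cluster of its own, so averaging such clusters per gene changes nothing. No detection call was available, so dimness is only a level below the median of all values.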
